A study of Rattus norvegicus with 64 samples.

Results

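The epidermal growth factor (EGF) family ligands Egf, Tgfa, Hbegf, Areg, Ereg and Btc and the ErbB receptors Egfr, Erbb2 and Erbb3 were followed in reconstructed urinary bladder wall of the rat. These 9 genes were chosen by name, and all 9 had a named probe among the 15715 genes named on the array. RNA of 64 bladders was measured on 1-color Agilent arrays. There were 8 arrays in each of 8 groups, which were bladders augmented with bladder acellular matrix (BAM) alone or with BAM seeded with adipose-derived stromal cells (ASCs), each at 7, 30, 90 and 180 days after surgery. All animals were male Wistar rats after hemicystectomy, and unseeded BAM served as the control. The ASCs were grown from retroperitoneal fat of male Wistar rats and used at the third passage. No unoperated bladder was among these arrays, so a level can be set only against the other reconstructed walls.

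EGF family ligands are made as membrane-anchored precursors, and cleavage by metalloproteases such as Adam17 releases them. Released ligand binds Egfr or related receptors, which pair and pass the signal to Ras and the mitogen-activated protein kinases (MAPK). Erbb2 has no known ligand of its own and is the preferred partner of the other receptors, while Erbb3 has little kinase activity and signals through its partners. In the bladder the pathway is known from the urothelium, where EGF receptor ligands stimulate growth of the cells that close a wound.

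The genome context of the genes that the results turn on is given first. Erbb2 lies on chromosome 10, in the order Pgap3, Erbb2, Mien1 and Grb7, so that Mien1 alone lies between the genes of the receptor and of its adaptor Grb7 among protein-coding genes. Btc, Areg, Ereg and Epgn, which encode ligands, are consecutive genes on chromosome 14. The bases just upstream of Erbb2 and Areg are shown. Among the brightest probes of the members, theirs moved most closely with the same cell markers across arrays, as described below. The fainter Tgfa probe moved with these markers too, but the brighter did not, and Tgfa is not shown. The bases were taken from RefSeq on assembly GRCr8, 5' to 3' on the strand of the gene, and end at the base before the annotated gene. Erbb2 is on the + strand, and its 140 bases are chr10:83907351-83907490. Areg is on the - strand, and its 250 bases are chr14:17265642-17265891. Capitals mark matches to the motifs searched.
Erbb2: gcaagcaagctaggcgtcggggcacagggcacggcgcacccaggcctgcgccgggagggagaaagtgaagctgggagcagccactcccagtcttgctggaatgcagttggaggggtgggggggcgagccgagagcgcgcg
Areg: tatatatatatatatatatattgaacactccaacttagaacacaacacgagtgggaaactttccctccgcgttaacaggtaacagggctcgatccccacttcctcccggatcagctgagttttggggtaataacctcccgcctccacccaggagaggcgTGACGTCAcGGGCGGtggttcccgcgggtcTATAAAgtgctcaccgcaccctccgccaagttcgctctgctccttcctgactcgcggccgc

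Both strands were searched for the letters of 5 motifs. The motif of AP-2 was spelled GCCNNNGGC. That of Sp and KLF factors was GGGCGG. That of AP-1 was TGANTCA. The cAMP response element was TGACGTCA, and the TATA box was TATAAA. The last pair of motifs was added after the Areg sequence had been seen. The Areg window held TGACGTCA, GGGCGG and TATAAA, each at 1 position and none overlapping another. Of 33469 promoter windows of 250 bases, 1.59% held TGACGTCA, 30.5% held GGGCGG and 12.9% held TATAAA. The letters of AP-2 and AP-1 were not in the Areg window, and 12.6% and 6.34% of the windows held them. None of the 5 was found in the shorter Erbb2 window, where 6.3%, 15.1%, 3.62%, 0.427% and 7.26% of windows of 140 bases held them in the order given. The compared windows of 140 and of 250 bases were the first bases of each promoter entry, not cut at the start of the gene. Their place relative to the gene can therefore differ from that of the Erbb2 and Areg windows. These matches describe letters and not factor binding.

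Signals are log2 values scaled to the 75th percentile of each array, so that 0 is the level of the 75th percentile spot and each unit is a doubling. A probe can be compared between arrays but not with another probe. Egfr and Erbb2 were well above background on 64 of 64 arrays, Tgfa on 63, Areg on 56, Hbegf on 43, Erbb3 on 41, Egf on 34, Ereg on 17 and Btc on 4. None of the 13 probes of the members was saturated. Detection was uneven over time. On the arrays at 7 and 30 days, 73.3% to 95.6% of gene spots were well above background. On those at 90 and 180 days, which were scanned on another date, it was 35.5% to 64.6%. The median background was between 42 and 52 on the earlier slides, between 99 and 171 on the later slides other than that of BAM at 90 days, and between 321 and 366 on that slide. Each group was on a slide of its own, so slide and group cannot be told apart in any comparison below.

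Erbb2 was the only member of 9 called between the grafts, at 7 days. At 7 days the signal of Erbb2 was -1.66, -0.82 and 0.27 (lowest, median and highest of 8) with BAM and -0.46, 0.42 and 0.59 with BAM+ASCs. All 8 BAM+ASCs arrays were above the median of BAM and 5 were above the highest BAM array, while the ranges overlapped. The means were -0.73 ± 0.636 and 0.26 ± 0.372 (SD, n = 8), a 1.99-fold higher signal with BAM+ASCs (log2 fold change 0.99, SE 0.234, limma, adjusted p = 0.00156). A difference was called where the Benjamini-Hochberg adjusted p over all 30367 probes was below 0.01 and the fold change over 1.5, the thresholds of the study. The 1 called member stood beside a background at 7 days in which 7.73% of all probes were called, 2.11% higher and 5.62% lower. A count of 1 of 9 was near the share of all probes called in either direction. No member was called at 30 days, when 1.67% of all probes were (1.2% higher and 0.474% lower), at 90 days, when 12.5% were (3.88% higher and 8.6% lower), or at 180 days, when 2.44% were (2.4% higher and 0.0428% lower). Where the groups of a comparison were fitted without the other 6 groups, the adjusted p of Erbb2 at 7 days was 0.0123 and it was no longer called.

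At 30 days the log2 fold change of Erbb2 was 0.63 (SE 0.234, adjusted p = 0.0788) and at 90 days 0.68 (adjusted p = 0.0217), with all 8 BAM+ASCs arrays above the BAM median each time. These differences did not pass the threshold. The other probes of Erbb2 gave 0.85 (second probe, adjusted p = 0.026) and 0.97 (faintest, adjusted p = 0.0917) at 30 days, but 0.08 (adjusted p = 0.825) and 0.07 (adjusted p = 0.9) at 90 days. The value of the brightest probe at 90 days rested in part on BAM replicate 5, which had the lowest signal of the group at -0.56 against 0.68 to 2.05 on the other arrays. It was 0.43 without that array and 0.80 without BAM replicate 7, when it was called (adjusted p = 0.00786). At 180 days the difference was -0.25 (adjusted p = 0.799). The change of the graft effect from 90 to 180 days was -0.93 (SE 0.331, adjusted p = 0.0363), which was not past the threshold, and on the second and the faintest probe it was -0.17 (adjusted p = 0.731) and -0.02 (adjusted p = 0.985).

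**Figure D1:**
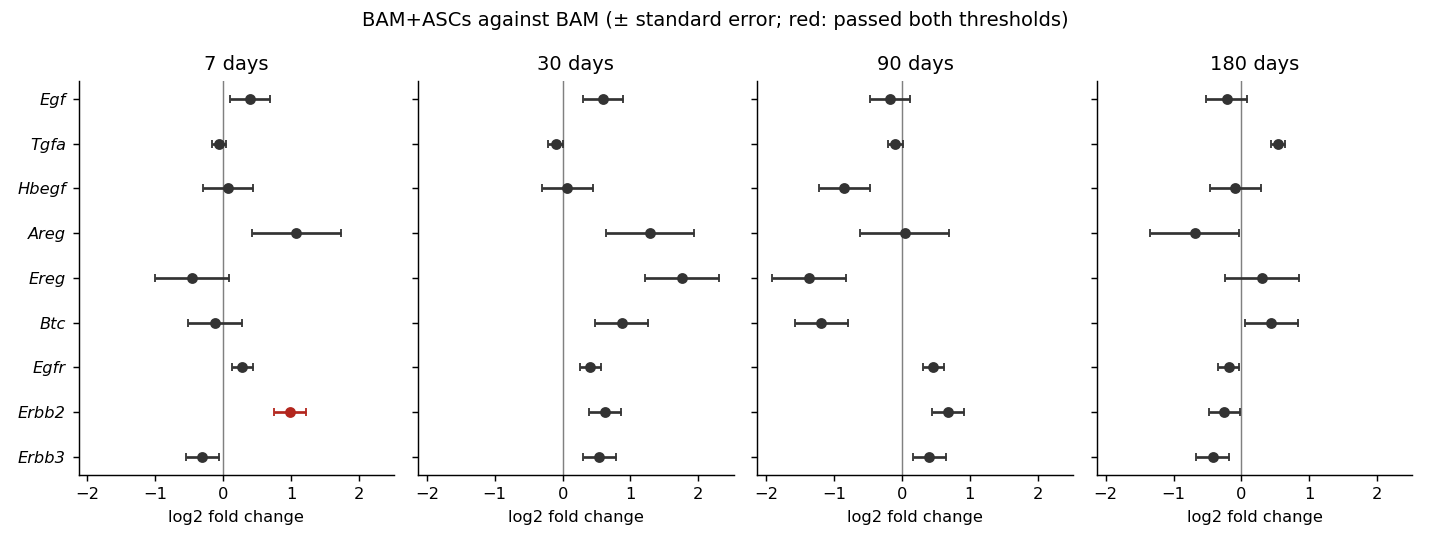
Log2 fold change of BAM+ASCs against BAM for the brightest probe of each member (points, with the standard error of the limma fit) at 7, 30, 90 and 180 days, 8 arrays a group. Only Erbb2 at 7 days, drawn in red at 0.99, passed both thresholds, and the bars of Areg and Ereg are wide.

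Over time the mean signal of the brightest Erbb2 probe was higher at each later day in both grafts, which the other probes did not share at the later steps. On this probe the step was called for 3 of 3 steps with BAM and 1 of 3 with BAM+ASCs. With BAM the means were -0.73, 0.25, 1.18 and 2.18 at 7, 30, 90 and 180 days, and each step was called, by 0.98 (adjusted p = 0.00131), 0.93 (adjusted p = 4.65e-04) and 0.99 (adjusted p = 8.39e-04) on the log2 scale. At 180 days the 8 BAM arrays lay between 1.87 and 2.44, and 7 of them were above every array at 90 days. With BAM+ASCs the means were 0.26, 0.88, 1.87 and 1.93, and only the step from 30 to 90 days was called (0.99, adjusted p = 4.31e-04). The step from 7 to 30 days was 0.62 (adjusted p = 0.0418) and that from 90 to 180 days 0.06 (adjusted p = 0.872). The mean of the urothelium markers, described below, was 0.20, 1.81, 2.20 and 2.92 with BAM and 1.95, 2.72, 3.03 and 2.58 with BAM+ASCs on the same days. Of 16 such genes, 7, 3 and 0 were called higher at the 3 steps with BAM, beside 8.65%, 44.7% and 9.39% of all probes called in either direction. With BAM+ASCs 2, 1 and 0 were, beside 8.06%, 28.1% and 4.14%. From 30 to 90 days 35.2% of all probes were called higher with BAM and 17.8% with BAM+ASCs. The marker counts of that step were not above those shares. The part of the markers in the steps of Erbb2 was not tested. In the order of the 8 group means, BAM at 30 days (0.25) and BAM+ASCs at 7 days (0.26) were neighbours that did not differ beyond their spread. Of the 7 neighbouring pairs, 2 were apart by more than the larger SD, BAM at 7 days from BAM at 30 days and BAM+ASCs at 7 days from BAM+ASCs at 30 days. In the separate fits the 3 steps of BAM were no longer called (adjusted p = 0.0134, 0.0161 and 0.0283).

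The 3 probes of Erbb2 had the same sign at the early days and parted at the later ones. The values above are those of the brightest probe, which was printed once per array. At 7 days the graft difference was 0.74 on the second probe (adjusted p = 0.0316) and 1.09 on the faintest (adjusted p = 0.0337), neither of them called. From 7 to 30 days with BAM the change was 0.83 on the second probe (adjusted p = 0.0116) and 1.58 on the faintest, where it was called (adjusted p = 0.00114). With BAM+ASCs both were called for that step, with 0.94 (adjusted p = 0.0041) and 1.46 (adjusted p = 0.003). From 30 to 90 days with BAM the second probe rose by 0.84 (adjusted p = 0.00303), while with BAM+ASCs its change was 0.06 (adjusted p = 0.851). From 90 to 180 days with BAM the second probe gave -0.14 and the faintest -0.26, against 0.99 for the brightest. At 90 and 180 days the faintest probe was well above background on 1 of 32 arrays. The steps from 7 to 30 days were therefore positive on all 3 probes in both grafts. The step from 30 to 90 days with BAM+ASCs was called on the brightest alone, and the faintest gave -0.56. The step from 90 to 180 days was positive on the brightest alone in both grafts. With BAM+ASCs it was -0.30 on the second probe and -0.27 on the faintest.

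**Figure D2:**
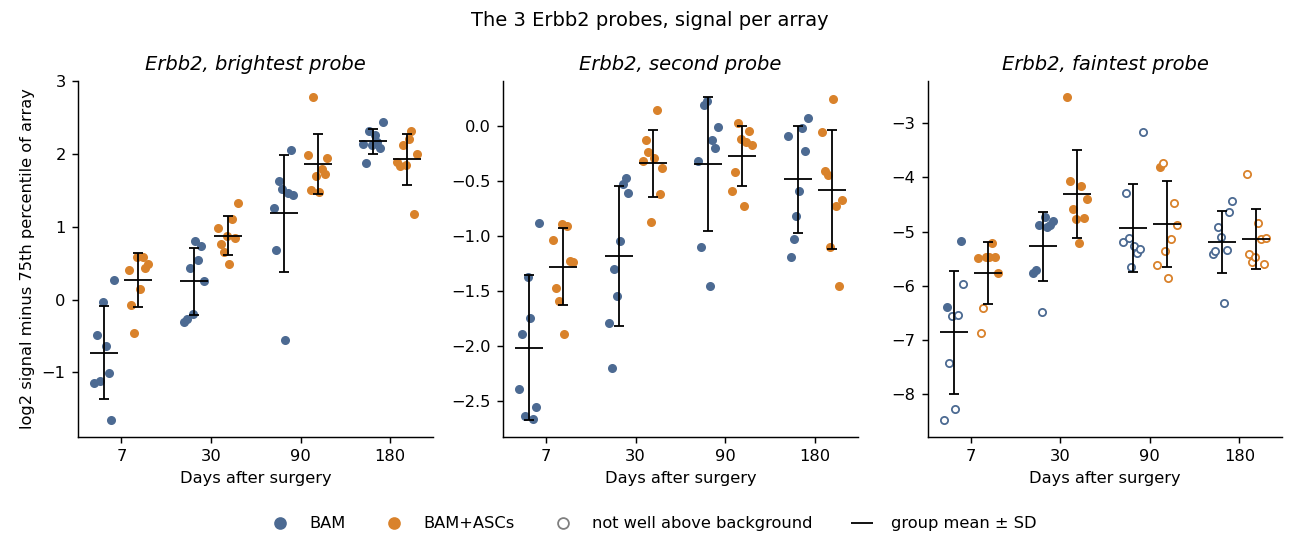
Signal of the 3 Erbb2 probes on each array (points, open where not well above background) with the mean and SD of 8 arrays (black) for BAM (blue) and BAM+ASCs (orange) by day. The scales of the panels differ, and the means at 30 days are above those at 7 days in all 3 panels, while the BAM mean at 180 days is above that at 90 days in the first.

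The urothelium markers moved together with Erbb2. The urothelium is the lining epithelium of the bladder, and 16 of 18 listed markers were on the array, among them the uroplakins of the luminal surface and the keratins. All 16 were well above background on some array of every group. Their mean signal at 7 days was 0.20 ± 1.47 (SD, n = 8) with BAM, ranging from -2.65 to 1.85, and 1.95 ± 0.438 with BAM+ASCs, ranging from 1.01 to 2.38. Of the 16 genes 12 were called higher with BAM+ASCs at 7 days and none lower, beside 2.11% of all probes called higher. Their median log2 fold change was 2.01 against -0.16 over all probes. Upk2 was higher by 2.87 (adjusted p = 2.20e-04), Epcam by 2.60 and Upk1a by 2.36. Krt5 (1.72), Foxa1 (0.65), Krt20 (0.02) and Tp63 (-0.07) were not called. At 30 days 1 of the 16 was called higher (Foxa1, 1.05) and at 90 and 180 days none was called, with medians of 0.99, 0.85 and -0.29. Of all probes 1.2%, 3.88% and 2.4% were called higher on those days. Upk3a was saturated on 39 of 64 arrays, 3 of them at 7 days with BAM+ASCs, Upk1b on 18, Upk1a and Krt18 on 12 each, and Upk2 and Krt19 on 1 each. A saturated level is a lower bound. Apart from those 3 arrays all of these were at 30 to 180 days, and they enter the medians and the mean of the markers as measured.

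Across the 64 arrays, as deviations from the group means, Erbb2 followed the mean of the urothelium markers with a Pearson r of 0.85 and a Spearman rho of 0.81. The permutation p within groups was 1e-05 for each, the smallest that 100000 permutations can give, and 3e-05 after adjustment over the 13 probes tested. The values of an array share its scaling, and the relation was tested for these probes alone. A low p therefore does not set a member apart from other genes. Without the 2 arrays farthest from the median, BAM replicate 7 at 7 days and BAM replicate 5 at 90 days, r was 0.82. Within the 8 groups r was positive in 8, between 0.61 and 0.97. On the BAM arrays at 7 days the pair of values was -2.65 for the markers and -1.66 for Erbb2 in replicate 7, and 1.85 and 0.27 in replicate 8. The second probe of Erbb2 had an r of 0.69 and a rho of 0.69 (r = 0.71 without the 2 farthest arrays). The faintest had an r of 0.11 (adjusted p = 0.598) and a rho of 0.35 (adjusted p = 0.0206), and an r of 0.35 without those arrays. The part of the urothelium in the higher Erbb2 at 7 days was not tested, and in RNA of whole wall fewer cells of a type and less RNA per cell cannot be told apart.

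**Figure D3:**
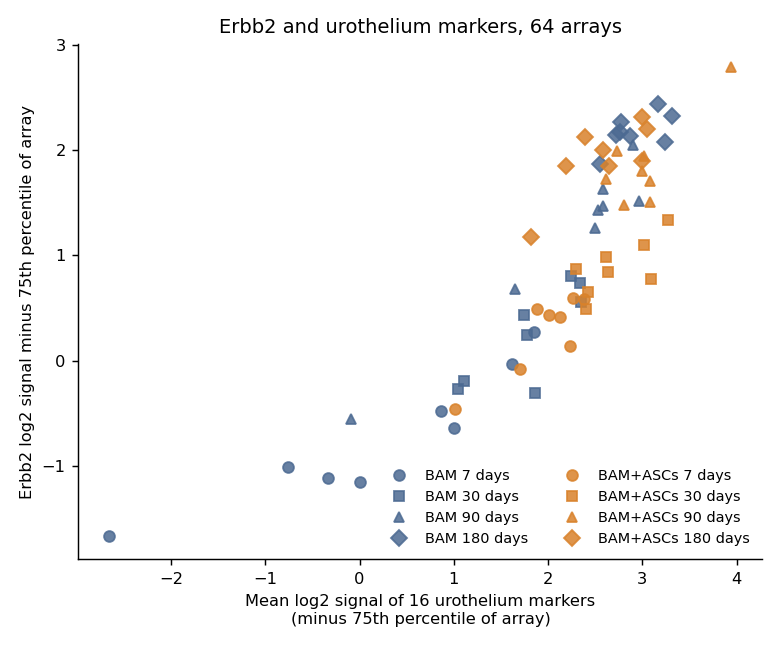
Signal of the brightest Erbb2 probe (vertical axis) against the mean signal of 16 urothelium markers (horizontal axis), both as log2 minus the 75th percentile, 1 point per array for the 64 arrays. The BAM arrays at 7 days run from -2.65 to 1.85 on the marker axis and the BAM+ASCs arrays at 7 days from 1.01 to 2.38. These arrays of 7 days lie on a rising band, and arrays at 180 days lie higher at like marker levels. At markers of 2.24 Erbb2 was 0.14 (BAM+ASCs replicate 5, 7 days) and at 2.19 it was 1.85 (BAM+ASCs replicate 4, 180 days).

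The other cell markers stood less near Erbb2. The r of Erbb2 was 0.07 with smooth muscle, -0.14 with macrophages, -0.05 with neutrophils, -0.26 with adipocytes, -0.17 with skeletal muscle, -0.37 with fibroblasts and -0.53 with endothelium, given as descriptions over the same 64 arrays. At 7 days the endothelial markers were at 0.43 ± 0.322 with BAM and -0.11 ± 0.184 with BAM+ASCs, and the neutrophil markers at 0.07 ± 0.883 and -1.17 ± 0.578. Among 9031 genes that could be compared, those with deviations most like Erbb2 were Rnf208 (r = 0.918), Tmem254 (r = 0.912) and Paqr5 (r = 0.905).

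Egfr, the receptor that binds all 6 ligands studied here, had a narrow range. Its signal at 7 days was -0.97, -0.56 and 0.22 (lowest, median and highest) with BAM and -0.58, -0.28 and 0.09 with BAM+ASCs. At 30 days it was -0.53, -0.29 and -0.09 with BAM and -0.13, -0.02 and 0.50 with BAM+ASCs, where 6 of 8 arrays were above the highest BAM array. At 90 days it was -0.66, -0.06 and 0.78 with BAM and -0.05, 0.36 and 1.08 with BAM+ASCs. The groups overlapped on each day. The log2 fold changes of BAM+ASCs against BAM were 0.28 (adjusted p = 0.236), 0.41 (adjusted p = 0.0905), 0.46 (adjusted p = 0.0205) and -0.19 (adjusted p = 0.749) at 7, 30, 90 and 180 days, and none passed the threshold. The means were -0.55, -0.31, -0.09 and 0.38 with BAM and -0.27, 0.10, 0.37 and 0.20 with BAM+ASCs, with no called step between consecutive days. The step from 90 to 180 days with BAM was 0.47 (adjusted p = 0.0213), and without BAM replicate 7 at 90 days it was 0.60 and called (adjusted p = 0.00197). The change of the graft effect from 90 to 180 days was -0.65 (adjusted p = 0.0301), and without the same array -0.77 and called (adjusted p = 0.00544). No 2 neighbours in the order of the 8 means were apart by more than the larger SD. The r of Egfr with the urothelium markers was 0.40 and rho 0.45 (permutation, adjusted p = 0.0301 and 0.00154), and 0.43 without the 2 farthest arrays. Within the groups r was between -0.22 and 0.82 and positive in 7 of 8. The genes most like Egfr were Pno1 (r = 0.762), Rars1 (r = 0.71) and Rnf217 (r = 0.709).

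Erbb3, the receptor of the neuregulins, gave faint signals. It was well above background on all 32 arrays at 7 and 30 days and on 0, 4, 2 and 3 of 8 arrays of BAM at 90 days, BAM+ASCs at 90 days, BAM at 180 days and BAM+ASCs at 180 days. At 7 days the signal was -4.71, -4.37 and -3.59 with BAM and -4.87, -4.75 and -3.84 with BAM+ASCs, and 6 of the 8 BAM+ASCs arrays were below every BAM array. At 30 days it was -5.14, -4.64 and -3.52 with BAM and -4.44, -4.24 and -2.96 with BAM+ASCs, with all 8 BAM+ASCs arrays above the BAM median. The log2 fold changes were -0.31 (adjusted p = 0.433) and 0.54 (adjusted p = 0.153), and -0.42 (adjusted p = 0.489) at 180 days. No fold is given at 90 days, when no BAM array was well above background (adjusted p = 0.178). The group means of the 8 groups lay between -4.66 and -4.05, and no step between days was called.

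**Figure D4:**
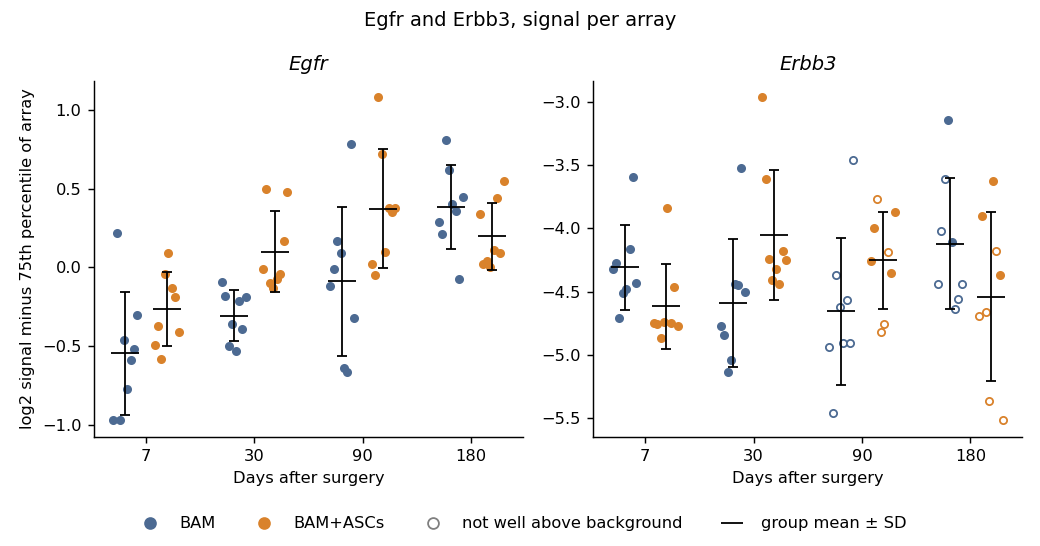
Signal of Egfr (left) and Erbb3 (right) on each array by day, with the mean and SD of 8 arrays (black), for BAM (blue) and BAM+ASCs (orange), open points being not well above background. The Egfr arrays lie between -0.97 and 1.08, and the groups overlap on every day.

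Among the ligands, Areg varied widely within the groups. Areg encodes amphiregulin, a ligand of Egfr that epithelial cells release. At 7 days its signal was -4.87, -2.37 and -0.39 with BAM and -2.92, -1.21 and -0.73 with BAM+ASCs. At 30 days it was -4.62, -1.95 and 0.77 with BAM and -2.32, -1.0 and 0.45 with BAM+ASCs. The BAM arrays at 7 days covered 4.48 units, and every BAM+ASCs array lay within their range. The log2 fold change was 1.08 at 7 days (SE 0.653, adjusted p = 0.278) and 1.29 at 30 days (adjusted p = 0.2), within the spread between arrays. At 90 and 180 days the differences were 0.04 and -0.69 (adjusted p = 0.97 and 0.806). The means over days did not differ past the threshold, and the step from 30 to 90 days with BAM+ASCs was -1.46 (adjusted p = 0.0577).

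Areg too followed the urothelium markers, with an r of 0.58 and a rho of 0.65 (permutation, adjusted p = 3e-05 for each), and 0.58 without the 2 farthest arrays. Within the 8 groups r was positive in 8, between 0.27 and 0.91. For Ereg, like Btc and Erbb3 not well above background on many arrays, r was 0.37 and rho 0.53 (permutation, adjusted p = 0.0472 and 1e-04), positive in 8 of 8 groups. For Hbegf r was 0.26 and rho 0.27 (permutation, adjusted p = 0.0401 and 0.0483). For Btc and Erbb3 r was 0.09 and 0.10 (permutation, adjusted p = 0.597 and 0.567) and rho 0.29 and 0.28 (permutation, adjusted p = 0.0404 and 0.0414). For the brighter Egf probe r was -0.05 and rho -0.08 (adjusted p = 0.637 and 0.639). The deviations of Areg also ran with those of the ligand genes Hbegf (r = 0.72) and Ereg (r = 0.56) and less with Erbb2 (r = 0.38), given as descriptions over 64 arrays that share a scaling. The genes most like Areg were Epha2 (r = 0.841), Sfnl1 (r = 0.827) and Gjb2 (r = 0.816).

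Tgfa, which encodes transforming growth factor alpha, had probes that disagreed. On its brighter probe the signal at 180 days was -1.57, -1.20 and -1.08 with BAM and -1.02, -0.69 and -0.44 with BAM+ASCs, and the groups did not overlap. The difference was 0.54 (SE 0.108, adjusted p = 3.91e-04), a 1.45-fold higher signal that was under the fold threshold and so not called, beside 2.4% of all probes called higher on that day. At 7, 30 and 90 days the brighter probe differed by -0.06, -0.10 and -0.10 (adjusted p = 0.752, 0.605 and 0.457).
The fainter probe gave -4.79, -2.89 and -1.86 with BAM at 7 days and -2.42, -1.90 and -1.67 with BAM+ASCs, and all 8 BAM+ASCs arrays were above the BAM median. Its log2 fold change was 1.18 at 7 days (adjusted p = 0.0149) and 1.30 at 30 days (adjusted p = 0.0176), and neither was called. At 180 days it differed by -0.08 (adjusted p = 0.999). Over the 64 arrays the deviations of the 2 probes had an r of -0.37. The fainter probe followed the urothelium markers (r = 0.77, rho = 0.75, permutation, adjusted p = 3e-05 for each, 0.71 without the 2 farthest arrays), with r between -0.24 and 0.94 within groups, while the brighter had an r of -0.23 (adjusted p = 0.33). No direction of Tgfa as a gene can be given from these probes. The genes most like the brighter probe were Atxn2l (r = 0.726), Pax5 (r = 0.721) and Lrrc41 (r = 0.718).

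**Figure D5:**
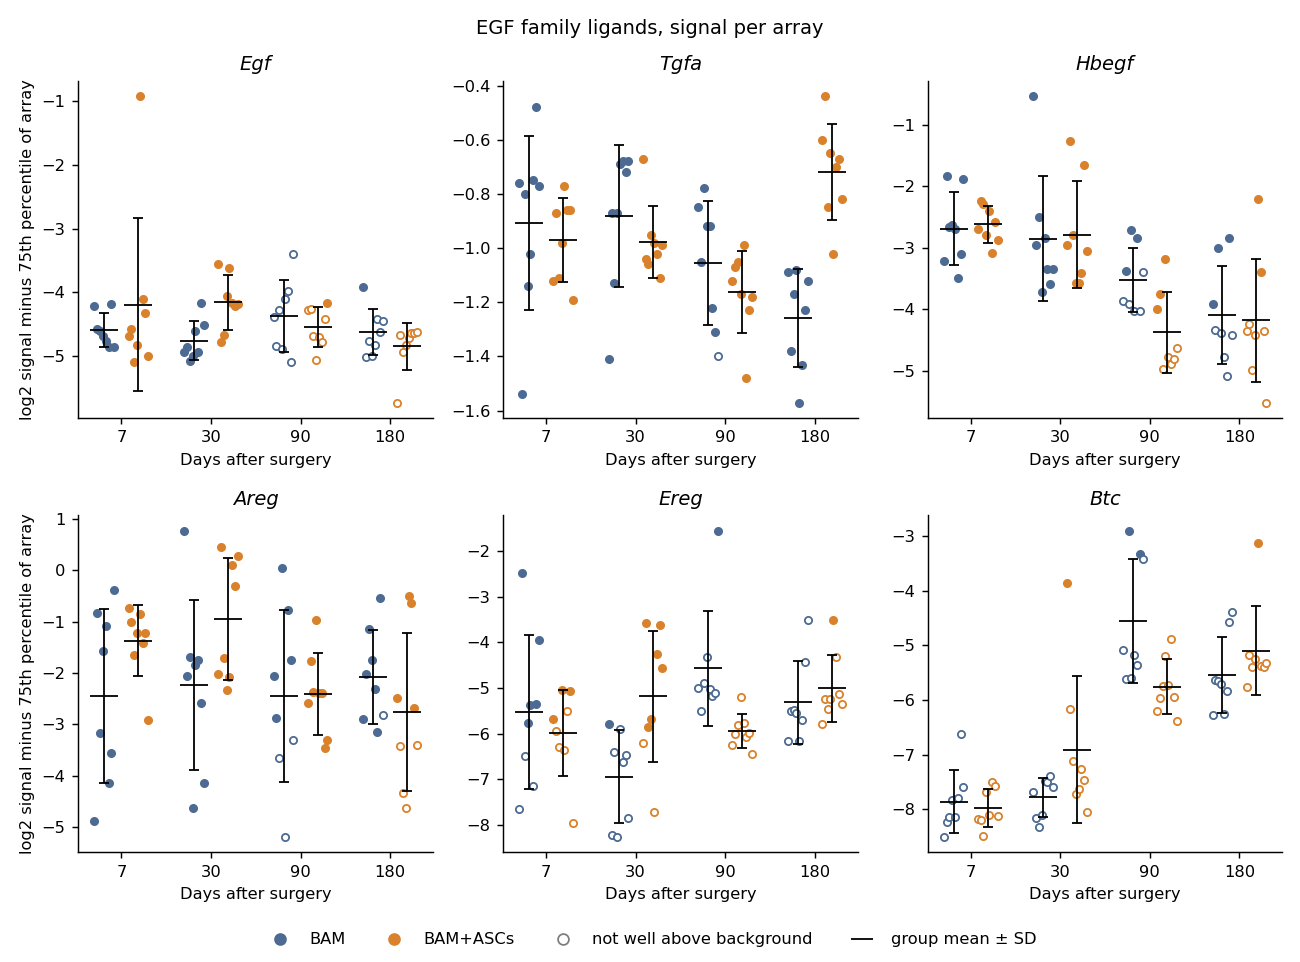
Signal of the 6 ligand genes (brightest probe) on each array by day, with the mean and SD of 8 arrays (black), for BAM (blue) and BAM+ASCs (orange), open points being not well above background. The scales differ between panels, the Areg arrays of a group cover up to 5.39 units, and Btc has 4 filled points in all.

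Hbegf, which encodes heparin-binding EGF-like growth factor, was not called between the grafts on any day, with log2 fold changes of 0.07, 0.07, -0.85 and -0.09 (adjusted p = 0.923, 0.928, 0.0657 and 0.999). It was lower at 90 than at 30 days with BAM+ASCs. Its signal was -3.58, -3.01 and -1.27 at 30 days and -4.97, -4.71 and -3.19 at 90 days, and 7 of 8 arrays at 90 days were below every array at 30 days. The mean fell by 1.59 on the log2 scale (adjusted p = 3.70e-04), which was called, but it was well above background on 8 of 8 arrays at 30 days and 3 of 8 at 90 days, and the call was lost with normexp background correction (-0.67, adjusted p = 0.034) and with quantile normalization (-1.15, adjusted p = 0.0509). With BAM the same step was -0.67 (adjusted p = 0.112). For the step from 30 to 90 days 28.1% of all probes were called with BAM+ASCs (17.8% higher and 10.3% lower) and 44.7% with BAM (35.2% higher and 9.49% lower), and 2 and 3 of the 9 members. The other members called in that step were Erbb2 in both grafts and, with BAM, the faint Ereg and Btc.

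Egf, Ereg and Btc were faint. Egf, the founding ligand of the family, was well above background on all 32 arrays at 7 and 30 days and on 2 of 32 later. Its signal at 30 days was -5.07, -4.89 and -4.16 with BAM and -4.78, -4.17 and -3.56 with BAM+ASCs, with a log2 fold change of 0.60 (adjusted p = 0.186). At 7 days the difference was 0.40 (adjusted p = 0.397). BAM+ASCs replicate 5 stood at -0.92 against -4.11 or lower on the other 7 arrays of that group, and without it the difference was -0.07.

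Ereg encodes epiregulin, a ligand of Egfr and Erbb4. It was well above background on 1 of 8 BAM arrays and 6 of 8 BAM+ASCs arrays at 30 days. The signal was -8.27, -6.55 and -5.79 with BAM and -7.73, -5.13 and -3.58 with BAM+ASCs, where 5 of 8 arrays were above every BAM array. The difference of 1.76 was not called (adjusted p = 0.0354), and without BAM+ASCs replicate 5 it was 2.12 and called (adjusted p = 0.00943). At 90 days Ereg was well above background on 1 of 8 BAM arrays and on none with BAM+ASCs, and the measured means were -4.57 and -5.94 (adjusted p = 0.0455). The change of the graft effect from 30 to 90 days was called for Ereg (-3.13, adjusted p = 0.00268), but it rests on arrays where the probe was not above background, and with normexp background correction it was -0.51 (adjusted p = 0.564). The step of BAM from 30 to 90 days (2.37, adjusted p = 1.67e-04) likewise had 1 array of 8 well above background on either side, and it was 0.43 with normexp (adjusted p = 0.233).

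Btc encodes betacellulin, a ligand of Egfr and Erbb4. It was well above background on 2 BAM arrays at 90 days, 1 BAM+ASCs array at 30 days and 1 at 180 days. Its measured mean was -7.78 with BAM at 30 days and -4.56 at 90 days, when the slide background was also raised, and no fold is given. The step was called (adjusted p = 4.15e-10), as was the change of the graft effect (-2.07, adjusted p = 0.00562), but with normexp they were 0.69 and -0.17 and no longer called, and the latter was lost in 7 of the 32 fits that left out 1 array. At 90 days, with 2 of 8 BAM arrays and no BAM+ASCs array well above background, the measured means were -4.56 and -5.75 (adjusted p = 0.0169). Without BAM replicate 2 or BAM replicate 4 that comparison passed the threshold (adjusted p = 0.00901 and 0.00912), and no fold is given. The changes of the graft effect were called for 0 of 9 members from 7 to 30 days, 2 from 30 to 90 days (Ereg and Btc) and 1 from 90 to 180 days (the brighter Tgfa probe, 0.64, adjusted p = 0.0014), when 0.985%, 9.99% and 9.79% of all probes were called. The call of Tgfa was lost, by its fold, with normexp (0.55), with quantile normalization (0.53) and with the percentile over detected probes (0.54), and on its second probe the change was -0.61.

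Between consecutive days the members called with BAM were 1 from 7 to 30 days (Erbb2), 3 from 30 to 90 days and 1 from 90 to 180 days (Erbb2), beside 8.65%, 44.7% and 9.39% of all probes. With BAM+ASCs they were 0, 2 and 0, beside 8.06%, 28.1% and 4.14%. The share of members was therefore not above that of all probes for the step from 30 to 90 days. With BAM the count of 1 of 9 from 7 to 30 and from 90 to 180 days was near the share of all probes. The median log2 fold change of BAM+ASCs against BAM over the 9 members was 0.07, 0.60, -0.10 and -0.19 at 7, 30, 90 and 180 days, against -0.16, 0.11, -0.27 and 0.06 over all probes. At 30 days 8 of the 9 were positive, none of them called, while the median over all probes was positive too. Hbegf was among them at 0.07, and it was -0.16 with quantile normalization. Btc was well above background on 1 BAM+ASCs array and no BAM array at 30 days, and Ereg on 1 of 8 BAM arrays.

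Among the other ligands and the receptor Erbb4, 5 of 6 listed genes were on the array. Of the 5, 1 was called at 7 days and 1 at 30 days, beside 7.73% and 1.67% of all probes. Epgn, the gene of epigen next to Ereg, was lower with BAM+ASCs at 7 days. Its signal ran from -5.37 to -3.93 with BAM, well above background on all 8 arrays, and from -7.29 to -5.74 with BAM+ASCs, well above background on 1 array, and all 8 BAM+ASCs arrays were below every BAM array (log2 fold change -1.68, adjusted p = 1.71e-04). The call was lost with quantile normalization (-0.82, adjusted p = 0.133) and with the value table of the authors (-1.10, adjusted p = 0.0259). Nrg1, the gene of neuregulin 1, which binds Erbb3 and Erbb4, was higher with BAM+ASCs at 30 days. It ran from -5.27 to -2.64 with BAM and from -4.23 to -1.29 with BAM+ASCs, with 5 of 8 arrays above every BAM array (1.88, adjusted p = 0.00159, and 0.0232 in the separate fit). No gene of this list was called at 90 or 180 days.

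Of the sheddases, rhomboid proteins and their inhibitor, 9 of 11 listed genes were on the array. Of the 9, 1, 2 and 1 were called at 7, 30 and 90 days, beside 7.73%, 1.67% and 12.5% of all probes. The count at 90 days was not above that share. Adam19, a metalloprotease that cleaves neuregulins, was lower with BAM+ASCs at 7 days (-0.59, adjusted p = 0.00576), and the call was lost in 6 of the 16 fits that left out 1 array. That call was also lost with normexp (-0.46), with quantile normalization (-0.50) and with the percentile over detected probes (-0.48). At 30 days 2 genes were higher with BAM+ASCs, Rhbdf1, which encodes an inactive rhomboid that acts on the maturation of Adam17, by 0.71 (adjusted p = 0.00118) and the rhomboid protease Rhbdl2 by 1.26 (adjusted p = 0.00599). For both, 7 of 8 BAM+ASCs arrays were above every BAM array, and the call of Rhbdl2 was lost in 8 of the 16 fits that left out 1 array. At 90 days Timp3, the inhibitor of Adam17, was higher by 0.70 (adjusted p = 0.00569), and with normexp by 0.39 (adjusted p = 0.0913), with the call lost in 7 of the 16 fits that left out 1 array. No gene was called at 180 days. The medians of the list were 0.08, 0.04, 0.26 and -0.04.

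Of the adaptors and the relay to MAPK, 21 of 23 listed genes were on the array. Called between the grafts were Grb7 and Shc1 at 7 days, Cblb at 30 days, and Stat3 and Mapk3 at 90 days. Beside them 7.73%, 1.67% and 12.5% of all probes were called on those days. The counts at 7 and 90 days were near those shares. Grb7, an adaptor that binds Erbb2, was higher with BAM+ASCs at 7 days. It ran from -4.43 to -0.07 with BAM and from -1.15 to 0.46 with BAM+ASCs, and 6 of 8 BAM+ASCs arrays were above every BAM array (1.84, SE 0.421, adjusted p = 0.00109). It was not called in the separate fit (adjusted p = 0.0222). The adaptor Shc1 was lower at 7 days (-0.66, adjusted p = 0.0094), and the call was lost in 10 of the 16 fits that left out 1 array. Among other settings it was also lost with normexp (-0.53), with quantile normalization (-0.63) and in the separate fit. At 30 days the ubiquitin ligase Cblb, which removes activated receptors, was lower with BAM+ASCs (-0.65, adjusted p = 2.93e-04) and all 8 arrays were below every BAM array. At 90 days Stat3, a transcription factor downstream of several receptors, was lower (-0.67, adjusted p = 1.60e-05), and no BAM+ASCs array reached the lowest BAM array. Mapk3 passed both thresholds at 90 days, but its probe was saturated on 8 of 8 BAM and 5 of 8 BAM+ASCs arrays, so no direction is given. No gene was called at 180 days.

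Of the feedback inhibitors, 12 of 15 listed genes were on the array. Of the 12, 1 was called at 7 days and 1 at 180 days, beside 7.73% and 2.44% of all probes. The count at 7 days was near that share. Spry4, an inhibitor of receptor signalling that the pathway itself induces, was lower with BAM+ASCs at 7 days (-0.62, adjusted p = 0.00844) and higher at 180 days (0.84, adjusted p = 8.20e-04), when all 8 BAM+ASCs arrays were above every BAM array. Neither call was kept with quantile normalization (adjusted p = 0.273 and 0.0823), and that at 7 days was lost in 8 of the 16 fits that left out 1 array. The call at 7 days was also lost with normexp (-0.49), the percentile over detected probes (-0.52), the value table (-0.61) and the separate fit. None of the 12 was called at 30 or 90 days. At 7 days 1 of the 12 was positive, with a median of -0.30 against -0.16 over all probes.

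All 13 early targets of MAPK signalling on the list were on the array, among them Fos, Egr1, Jun and Myc, and none was called between the grafts at 7, 90 or 180 days. At 30 days the transcription factor gene Etv4 was higher with BAM+ASCs (1.80, adjusted p = 0.00694), well above background on 7 of 8 BAM+ASCs and 4 of 8 BAM arrays, and with normexp it was 0.48 (adjusted p = 0.41). That call was lost in 10 of the 16 fits that left out 1 array. The medians of the list were -0.05, -0.24, -0.13 and -0.01, against -0.16, 0.11, -0.27 and 0.06 over all probes. From 30 to 90 days 4 of the 13 fell and 1 rose with BAM, beside 9.49% of all probes called lower and 35.2% called higher. With BAM+ASCs 4 fell and none rose, beside 10.3% and 17.8%. In the same step 5 of 7 macrophage markers fell with BAM and 3 of 7 with BAM+ASCs, with medians of -1.02 and -0.57. Their mean level was 1.5 ± 0.338 (SD, n = 8) at 30 days and 0.23 ± 0.762 at 90 days with BAM, and 0.79 ± 0.325 and -0.09 ± 0.971 with BAM+ASCs. Their part in the early targets was not tested.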

How the data were processed

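Total RNA of the reconstructed bladder wall was labeled with Cy3 and hybridized to 1-color Agilent rat arrays, 8 arrays in each of 8 groups. The scanner intensities were extracted by the authors with Agilent Feature Extraction 12.0.1.1, and the deposited processed intensity of each spot was already background-subtracted. The series also holds a value table of intensities by the authors, used as an alternative. Its median log2 ratio to the scanner values was -3.30 to -3.31 on 3 BAM+ASCs arrays at 7 days and 0 on the others. The scaling below takes out a shift shared by all spots of an array. Differences at 7 days could still change with the value table, as for the dim Btc (1.00 against -0.12 from the scanner values). On 1 BAM array at 180 days 24873 gene spots had no value. From the scanner files, the processed signal was put on the log2 scale and the 75th percentile of the array, over spots other than controls, was subtracted, spots flagged as outliers were left out, and spots of a probe were averaged. A gene was represented by its probe of highest mean signal. Differences were tested with limma 3.58.1 in R 4.3.3, with 8 group means over 64 arrays and 13 contrasts, and with Benjamini-Hochberg adjustment over 30367 probes. A probe counted as well above background if 0.5 or more of its spots on the array carried that mark of the scanner software. Relations with markers were tested by 100000 permutations within groups, two-sided (numpy 2.4.6, scipy 1.17.1).

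Groups were taken from the labels. The members, the gene lists and the rule for named genes (all members, and the pathway list genes called between the grafts) were chosen with earlier results of these data known. The 8 arrays of a group were of different animals per the study, but each group was on its own slide, so p-values measure the spread between arrays of a slide. The fit was tested on simulated data. Gene order and promoters were taken from RefSeq on assembly GRCr8, and Ereg, Erbb3, Egf and Grb7 had no promoter entry there. Alternatives were normexp background correction (offset 50), quantile normalization, the 75th percentile over detected probes, the value table, outlier spots kept, dim probes left out, separate fits, the unmoderated variance of a 2-way analysis, a replicate block, other probes and leaving out each array. The number of arrays limits the precision.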

Additional observations from a re-analysis of the deposited data

Results flagged for a closer look

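The arrays named here stood apart from the other 7 of their group by Dixon's criterion, which at 95% confidence flags about 5% of groups by chance. Of 72 groups of 8 arrays, 13 held such an array. Egf was highest at -0.92 in BAM+ASCs replicate 5 at 7 days and lowest at -5.73 in BAM+ASCs replicate 1 at 180 days. Tgfa was highest at -0.67 in BAM+ASCs replicate 1 at 30 days, and Hbegf at -0.54 in BAM replicate 1 at 30 days. Areg was lowest at -2.92 and Ereg at -7.96 in BAM+ASCs replicate 8 at 7 days. Ereg was highest at -1.55 in BAM replicate 8 at 90 days. Btc was highest at -3.86 in BAM+ASCs replicate 1 at 30 days and at -3.13 in BAM+ASCs replicate 5 at 180 days. Erbb2 was highest at 2.78 in BAM+ASCs replicate 3 at 90 days and lowest at 1.18 in BAM+ASCs replicate 7 at 180 days. Erbb3 was highest at -3.84 in BAM+ASCs replicate 5 at 7 days and at -3.52 in BAM replicate 7 at 30 days.

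The graft effect differed between days, by limma's test of the change itself, for Ereg (-3.13) and Btc (-2.07) from 30 to 90 days and for the brighter Tgfa probe (0.64) from 90 to 180 days. Ereg was well above background on 1 of 8 BAM arrays at 30 days and on 1 at 90 days, and Btc on none and 2.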

How the results depend on the processing

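Among the members and named genes, 557 values under other settings kept their direction and side of the threshold, 47 lost the call, 4 gained it and 25 changed sign. Members called numbered 0 in separate fits at 7 days between the grafts, from 7 to 30 days with BAM and from 90 to 180 days with BAM, and 1 for the change of the graft effect from 30 to 90 days. With normexp the count was 1 at 90 days between the grafts, 1 from 30 to 90 days in each graft, and 0 for the changes of the graft effect from 30 to 90 and from 90 to 180 days. With dim probes left out it was 1 from 30 to 90 days with BAM and 0 for the change from 30 to 90 days. With quantile normalization it was 1 from 30 to 90 days with BAM+ASCs, and 1 and 0 for the changes from 30 to 90 and 90 to 180 days, the former also 1 with the value table. With the percentile over detected probes the last count stayed at 1, but the Tgfa call was lost (0.54) and an Egfr call gained (-0.75, adjusted p = 0.00727). Leaving out 1 array gave counts of 0 to 1 at 30 and at 90 days between the grafts, 1 to 2 from 90 to 180 days with BAM, 2 to 3 from 30 to 90 days with BAM+ASCs, and 1 to 2 for the changes from 30 to 90 and 90 to 180 days. The higher Erbb2 at 7 days was 0.86 to 1.13 and stayed called in each such fit.

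Sign changes were seen between the grafts in small or dim differences. Quantile normalization gave 0.16 for Btc at 7 days, -0.16 for Hbegf at 30 days, 0.32 for Egf at 90 days, and 0.14 for Egf and -0.26 for Ereg at 180 days. Normexp gave -0.05 for Hbegf at 7 days and 0.04 for Egf and -0.02 for Areg at 90 days. The percentile over detected probes gave 0.04 for Tgfa at 7 days. The value table gave 1.00 for Btc at 7 days, where 3 of the 8 BAM+ASCs arrays in it lay about 3.3 log2 units below the scanner values before scaling. The second Tgfa probe gave 1.18, 1.30, 0.53 and -0.08 at the 4 days, -0.67 from 90 to 180 days with BAM+ASCs and -0.61 for the change of the graft effect. The other Egf probe gave 0.24 and the faintest Erbb2 probe 0.05 at 180 days. From 90 to 180 days Erbb2 was -0.26 (faintest) and -0.14 (second probe) with BAM, and with BAM+ASCs -0.27 and -0.30, -0.005 with quantile normalization and -0.04 with the percentile over detected probes. From 30 to 90 days with BAM+ASCs the faintest gave -0.56. Without 1 array, differences at 7 days ran from -0.07 to 0.53 (Egf), -0.15 to 0.0004 (Tgfa), -0.05 to 0.19 (Hbegf) and -0.22 to 0.06 (Btc), from -0.15 to 0.40 (Hbegf, 30 days), from -0.36 to 0.39 (Areg, 90 days) and from -0.37 to 0.10 (Hbegf, 180 days). The causes were not tested. The replicate numbers did not pair the samples (same-number r from -0.275 to 0.328), and with the replicate block Erbb2 at 7 days was 0.99 (adjusted p = 0.00152) and no reported call changed.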
